A study of Mus musculus with 49 samples.

Results

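The E2F family and its DP partners are 10 genes in the mouse, *E2f1* to *E2f8*, *Tfdp1* and *Tfdp2*, and RNA-seq gave their transcript levels in CD8+ T cells from spleen cultured with IL-2. They were picked by gene symbol, 10 of the 23992 symbols in the files, with the longest RefSeq transcript taken for each, and all 10 were among the 15566 genes tested. The mice came from 2 lines, each homozygous for a CRISPR/Cas9 point mutation that turns the tyrosine phosphorylated on cytokine signalling into phenylalanine: Y694F in *Stat5a* and Y699F in *Stat5b*. For each line, CD8+ T cells of knock-in (KI) mice and of WT littermates were taken at 0 hr, without IL-2, and after 4, 24 and 48 hr in medium with recombinant human IL-2 at 500 IU/ml, which gives 16 groups of 3 libraries. Founders came from B6D2F1 zygotes and were backcrossed to C57BL/6J for 6 generations, and mice of both sexes aged 8 to 24 weeks were used. The mutations are germline, so every cell type of a KI animal carries them. Nothing in the labels says that the libraries of a group came from separate animals, so p-values measure the spread between these samples, which may be technical.

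E2F proteins bind DNA near the start sites of genes for DNA replication and cell division. The typical members pair with a DP protein to do so, and the retinoblastoma (RB) family of pocket proteins holds them inactive, or turns them into repressors, until cyclin-dependent kinases phosphorylate the pocket protein. E2F1, E2F2 and E2F3 are called activators. E2F4 and E2F5 act mainly as repressors with pocket proteins in resting cells, E2F6 represses within a Polycomb complex and lacks the pocket-protein binding region, and the atypical E2F7 and E2F8 bind DNA without a DP partner and repress. In resting T cells the family is known for keeping cell cycle genes off, and IL-2 is a growth factor for activated T cells whose receptor signals through STAT5.

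The libraries were checked before the members were compared. The 47 libraries used held 17369112 to 60200653 reads on the transcripts used (median 41410666). The third replicate of *Stat5a* KI at 4 hr held 1028515 such reads and was left out, so that group has n = 2. Among WT libraries of the *Stat5a* line at 4 hr, replicate 2 also stood apart: 44.9% of its mapped reads lay on the transcripts used, against 68.7% to 84.4% in the other 46. The chi-square per gene of its counts, which grows as libraries differ beyond their total, was 217 against replicate 1 and 221 against replicate 3, where every other pair within a group was at 53.3 or lower. In RPKM (reads on a transcript scaled by its length and the depth of the library) it was the lowest of the 3 libraries for 7 of the 10 members and the highest for *E2f8*, and *E2f4* was at 42.0, 24.3 and 41.5 RPKM in replicates 1, 2 and 3 of that group. Fitted differences are scaled by the reads on the genes tested, and calls of that comparison that change without this library are named.

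Both mutated genes were transcribed in all groups. In this text an error after an RPKM value or a percentage is the SD over the 3 libraries of a group, and an error after a log2 value is its SE. *Stat5a* was at 19.7 ± 0.778 RPKM in WT and 20.01 ± 1.85 RPKM in *Stat5a* KI cells at 0 hr, and *Stat5b* at 29.2 ± 0.755 and 27.0 ± 0.154 RPKM in WT and *Stat5b* KI cells of its line. A change of 1 codon does not show in transcript counts, so these levels do not check the genotype. At 0 hr the CD8 chain gene *Cd8a* was at 131.9 to 209.7 RPKM as group means and *Cd4* at 6.36 to 18.6 RPKM. The summed level of 6 CD8 T cell markers (a further one, *Trac*, was not used here), of which *Thy1* was the most abundant, was 1114 to 1615 RPKM as group means at 0 hr and 1756 to 2155 RPKM at 48 hr. Markers of other cell types moved with genotype and with time and are given beside the results.

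At rest, *E2f4* was the most abundant member and *Tfdp1* the next in WT cells of both lines. *E2f4* was at 33.7 ± 1.78 and 38.4 ± 2.78 RPKM in WT cells of the *Stat5a* and *Stat5b* line, and *Tfdp1* at 14.3 ± 0.782 and 16.1 ± 1.38 RPKM. *E2f5* and *E2f6* followed at 4.28 to 4.87 RPKM as group means, with overlapping libraries in each line. Group means of the 3 activators lay at 1.17 to 2.94 RPKM and those of *Tfdp2* at 2.47 and 2.69 RPKM. The atypical *E2f8* and *E2f7* were lowest, at 0.876 and 0.199 RPKM in the *Stat5a* line. These low levels still rest on reads, since the lowest count of any member in a library used was 33, for *E2f7*. *E2f4* and *E2f5* together made up 76.7% ± 0.711 of the summed RPKM of the 8 E2F genes in WT cells of the *Stat5a* line, and 77.4% ± 1.52 in those of the *Stat5b* line.

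After 48 hr with IL-2 the order had changed. In the *Stat5b* line WT *Tfdp1* came first at 131.1 ± 4.23 RPKM and *E2f4* second at 76.0 ± 2.84 RPKM. *E2f1*, *E2f8* and *E2f2* lay together at 20.7, 20.2 and 19.4 RPKM with overlapping libraries, followed by *E2f6*, *E2f3* and *E2f7* at 15.4, 10.2 and 4.78 RPKM. *E2f5* and *Tfdp2* were now the lowest, at 3.57 and 2.35 RPKM.

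**Figure D1:**
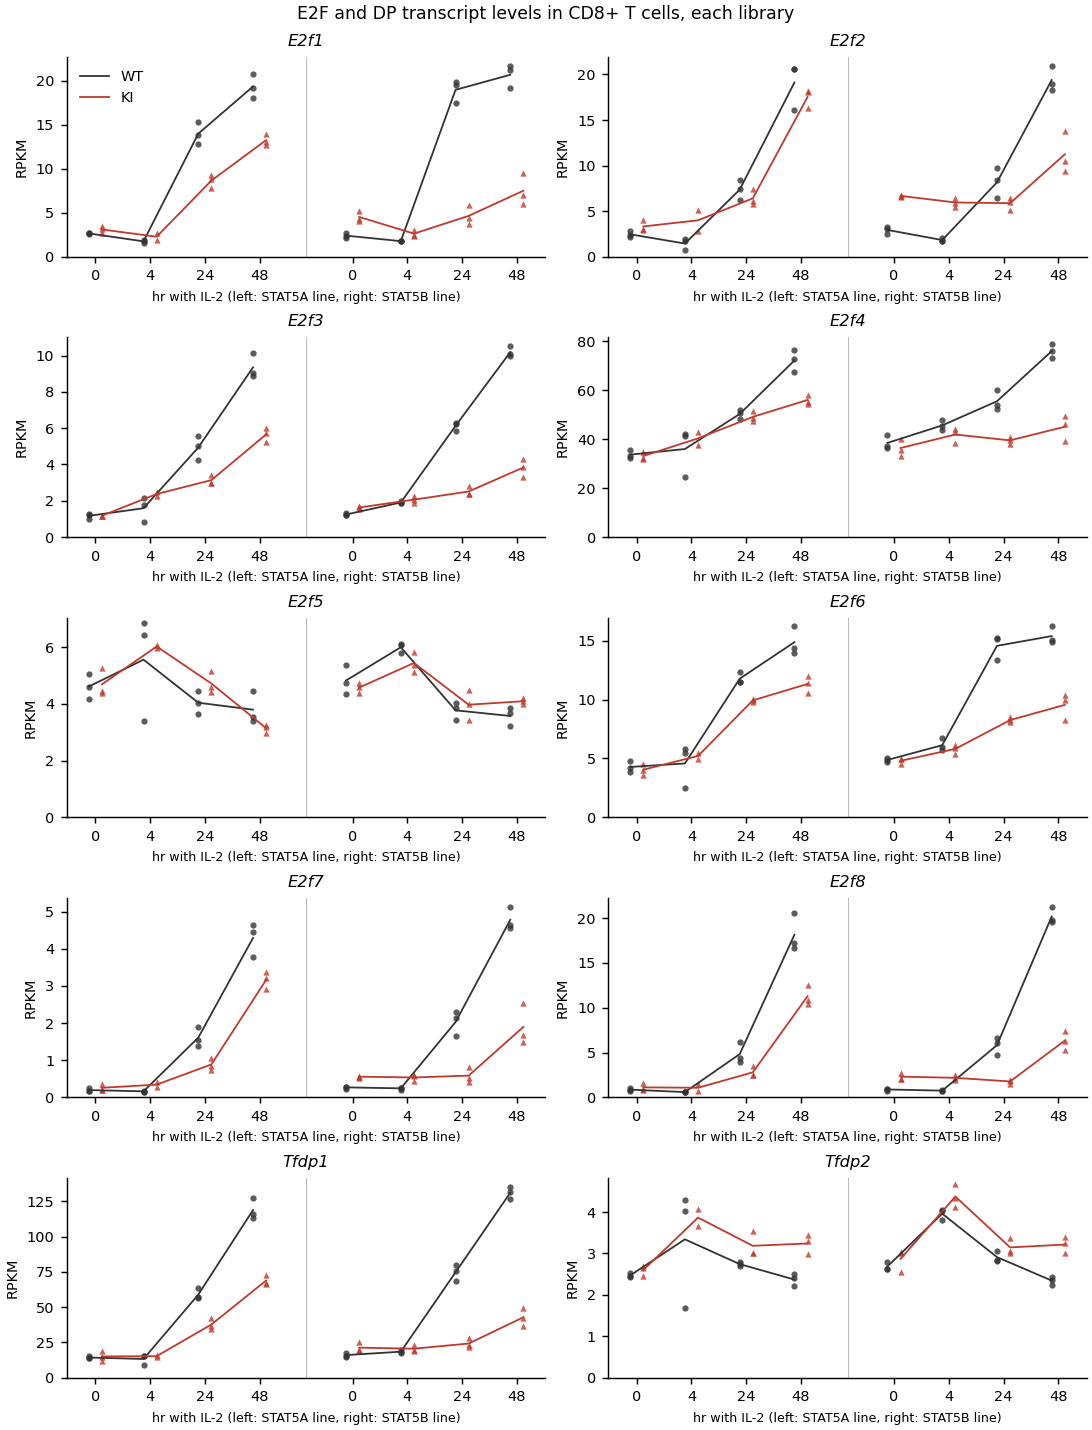
RPKM of the 10 members (1 panel each) against hours with IL-2, with the *Stat5a* line at the left and the *Stat5b* line at the right of each panel; points are libraries (circles WT, triangles KI) and lines join group means. In the *Stat5b* line at 48 hr *Tfdp1* lies at 126.8 to 135.2 RPKM in WT and 36.6 to 49.6 RPKM in KI libraries.

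WT cells, in which both STAT5 proteins can be phosphorylated, were compared between 0 hr and later times with IL-2. No group used here was cultured without IL-2, so IL-2 and time in culture cannot be told apart. At 48 hr, 8 of the 10 members had risen and 2, *E2f5* and *Tfdp2*, had fallen in each line (edgeR quasi-likelihood test, adjusted p of at most 0.05). Of all genes tested, 34.1% rose and 37.7% fell in the *Stat5a* line, and 33.1% rose and 36.8% fell in the *Stat5b* line. In each line 7 members rose by at least 2-fold, against 14.3% and 14.6% of all genes. The median log2 change of the 10 members was 2.70 in each line, and that of all genes was -0.12 and -0.13.

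Markers of other cells fell over the same 48 hr in WT cells of both lines. All 7 B cell markers (median log2 change -2.69 in the *Stat5a* and -2.93 in the *Stat5b* line), all 9 macrophage and monocyte markers (-3.75 and -4.36), all 6 erythroid markers, all 5 neutrophil markers and all 5 dendritic cell markers (-4.01 and -4.27) fell in each line. So did 4 and 3 of 4 CD4 T cell markers and 7 of 7 naive T cell markers in each line. In each line 4 of 5 NK cell markers rose and 0 fell, and 4 of 6 memory-phenotype markers rose while 2 and 1 fell. Of the 6 CD8 T cell markers 2 rose and 2 fell in the *Stat5a* line, and 1 rose and 4 fell in the other. Their part in the changes of the E2F and DP genes was not tested.

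The activators are the members that drive S phase genes, and each rose between 4 and 24 hr. *E2f1* was at 2.34, 2.16 and 2.70 RPKM in the 3 *Stat5b* line WT libraries at 0 hr. It was at 17.4, 19.9 and 19.6 RPKM at 24 hr and at 21.2, 19.1 and 21.7 RPKM at 48 hr. The libraries at 24 and 48 hr lay far above those at 0 hr and overlapped each other. The log2 change from 0 to 48 hr was 2.93 ± 0.17 (adjusted p = 1.35e-17), and from 24 to 48 hr it was 0.14 ± 0.15 (adjusted p = 0.502). WT cells of the *Stat5a* line changed from 0 to 48 hr by 2.66 ± 0.17 (adjusted p = 1.41e-16).

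*E2f2*, another activator, kept rising after 24 hr. It was at 2.48, 3.03 and 3.32 RPKM at 0 hr, at 6.41, 8.37 and 9.71 RPKM at 24 hr and at 18.3, 18.9 and 20.9 RPKM at 48 hr in the *Stat5b* line WT. The libraries of the 3 times did not overlap, and the step from 24 to 48 hr was 1.26 ± 0.17 on the log2 scale (adjusted p = 1.47e-07). *E2f3*, an activator needed for proliferation in many cell types, went from 1.19 to 1.31 RPKM at 0 hr to 9.99 to 10.5 RPKM at 48 hr, a log2 change of 2.86 ± 0.12 (adjusted p = 7e-22).

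At 4 hr the activators went different ways in WT cells. *E2f1* and *E2f2* fell by 0.61 ± 0.17 and 0.86 ± 0.18 on the log2 scale in the *Stat5b* line (adjusted p = 0.00317 and 9.71e-05), and fell by 0.54 ± 0.17 and 0.77 ± 0.18 in the *Stat5a* line (adjusted p = 0.00729 and 0.000361). *E2f3* rose by 0.44 ± 0.11 in the *Stat5b* line and 0.43 ± 0.11 in the *Stat5a* line (adjusted p = 0.00128 and 0.00143). *Tfdp2*, the less abundant DP partner, rose as well, by 0.38 ± 0.10 and 0.41 ± 0.10 (adjusted p = 0.00174 and 0.000779). In all, 2 members rose and 2 fell in the *Stat5b* line, where 25.1% of all genes rose and 24.5% fell. In the *Stat5a* line 3 rose and 2 fell, against 29.5% and 28.9% of all genes, and the third that rose was *E2f5* (0.27 ± 0.11, adjusted p = 0.0328). These counts were near the shares of all genes in both lines.

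The *Stat5a* line calls at 4 hr depended on single libraries. Without replicate 2 of its WT cells at 4 hr, *E2f6* also rose (adjusted p = 0.0363) and *E2f8* also fell (adjusted p = 0.0117). The fall of *E2f1* was lost without replicate 1 (adjusted p = 0.157) or replicate 3 (adjusted p = 0.0758) of that group, and the rise of *E2f5* without its replicate 3 (adjusted p = 0.0586) or without replicate 1 (adjusted p = 0.152) or replicate 2 (adjusted p = 0.0556) of WT at 0 hr. With only the compared groups in the fit 1 member passed in place of 5. By limma on log2(RPKM + 1) or log2(RPKM + 0.1) 2 passed, and with the left-out library included 3 did.

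Of the repressors that work with pocket proteins, *E2f4* rose and *E2f5* fell. *E2f4* was at 36.4, 41.6 and 37.3 RPKM at 0 hr and at 75.8, 73.2 and 78.9 RPKM at 48 hr in the *Stat5b* line WT, with no overlap. Its log2 change was 0.81 ± 0.07 (adjusted p = 4.98e-13) on the scale of the test, in which library sizes are normalised across genes. *E2f5* was at 4.36, 5.38 and 4.74 RPKM at 0 hr and at 3.84, 3.66 and 3.22 RPKM at 48 hr. It fell by 0.60 ± 0.11 on the log2 scale (adjusted p = 7.75e-06), and its libraries at these times did not overlap. WT libraries of the *Stat5a* line, where *E2f5* fell by 0.49 ± 0.11, did overlap, at 4.17 to 5.05 and 3.38 to 4.45 RPKM.

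*E2f6*, the Polycomb-linked repressor, made most of its rise by 24 hr. It went from 4.73 to 5.03 RPKM at 0 hr to 13.4 to 15.2 RPKM at 24 hr and 14.9 to 16.2 RPKM at 48 hr in the *Stat5b* line WT, with log2 changes from 0 hr of 1.39 ± 0.10 and 1.49 ± 0.10. From 24 to 48 hr its change was 0.09 ± 0.09 there (adjusted p = 0.452) and 0.30 ± 0.09 in the *Stat5a* line (adjusted p = 0.00985). The transcript used for *E2f6* is an isoform annotated as non-coding, and reads it shares with the coding isoform cannot be told apart.

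The atypical repressors had the largest fold changes of the 10 members in both lines. *E2f7* was at 0.241, 0.287 and 0.289 RPKM at 0 hr and at 4.56, 4.65 and 5.12 RPKM at 48 hr in the *Stat5b* line WT, a log2 change of 3.96 ± 0.23 (adjusted p = 1.96e-17). *E2f8* was at 0.744, 0.979 and 0.958 RPKM at 0 hr and at 19.8, 19.5 and 21.2 RPKM at 48 hr, a log2 change of 4.32 ± 0.24 (adjusted p = 1.99e-18). Both were still rising after 24 hr, *E2f8* by 1.81 ± 0.21 and *E2f7* by 1.25 ± 0.20 on the log2 scale (adjusted p = 8.87e-09 and 4.97e-06). From 0 to 48 hr *E2f7* changed by 4.23 ± 0.24 and *E2f8* by 4.16 ± 0.23 in WT cells of the *Stat5a* line.

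The DP genes moved in opposite directions. *Tfdp1* was at 14.9, 15.7 and 17.6 RPKM at 0 hr and at 135.2, 126.8 and 131.4 RPKM at 48 hr in the *Stat5b* line WT, a log2 change of 2.86 ± 0.12 (adjusted p = 1.18e-21). *Tfdp2* was at 2.64, 2.63 and 2.80 RPKM at 0 hr and at 2.35, 2.43 and 2.25 RPKM at 48 hr, and fell by 0.37 ± 0.10 on the log2 scale (adjusted p = 0.00161). The ratio of *Tfdp1* to *Tfdp2* RPKM thus went from 5.97 ± 0.314 to 56.0 ± 3.41 in the *Stat5b* line WT and from 5.81 ± 0.412 to 50.3 ± 4.17 in the *Stat5a* line WT. The call for *Tfdp2* was lost in the *Stat5b* line without replicate 3 of WT at 48 hr (adjusted p = 0.0528). In the *Stat5a* line (-0.27 ± 0.10, adjusted p = 0.0195) it was lost in 30 of the 47 fits that left out 1 library.

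At 24 hr, 8 members had risen and *E2f5* had fallen in each line, and *Tfdp2* had not passed the test. Of all genes, 30.1% rose and 28.9% fell in the *Stat5a* line, and 29.5% rose and 30.1% fell in the *Stat5b* line.

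The start regions of the members were searched for the letters that E2F proteins bind, since family members are themselves known E2F targets. RefSeq windows of 300 bases (250 before to 50 after a start) on GRCm38.p6, the patch release of the files' build, held entries for 8 of the 10 genes, with 12 windows in all. The forms TTTCCCGC, TTTCGCGC, TTTGCCGC and TTTGGCGC of the E2F site, read on both strands, were found in 5 of the 12 windows, those of *E2f2*, *E2f3*, *E2f7* and *Tfdp1*, and in 2.26% of all 32851 windows of the table. The cell cycle homology letters TTTGAA were found in 3 of the 12 windows and in 17.9% of all. The E-box CACGTG, which MYC binds, was found in 2 of the 12 and in 7.15% of all, and the STAT letters TTCNNNGAA in 0 of the 12 and in 8.3% of all. A match is a run of letters, not a measured site, and some windows of a gene overlap. *E2f4* and *E2f5* had no window. With 12 windows and 8.3% of all windows matching, 0 matches do not show that STAT letters are rarer at these genes. The 250 bases before the start are shown as examples for 4 genes that rose in WT cells and hold a match there (*E2f2*, with TTTGAA before its second start, is not shown), 5′ to 3′ on the strand of the gene, with E2F and TTTGAA matches (in either orientation) in capitals. They lie at chr13:29986064-29986313 (minus strand) for *E2f3*, chr10:110745189-110745438 (plus) for *E2f7*, chr7:48881597-48881846 (minus) for *E2f8* and chr8:13338501-13338750 (plus) for *Tfdp1*.
*E2f3*: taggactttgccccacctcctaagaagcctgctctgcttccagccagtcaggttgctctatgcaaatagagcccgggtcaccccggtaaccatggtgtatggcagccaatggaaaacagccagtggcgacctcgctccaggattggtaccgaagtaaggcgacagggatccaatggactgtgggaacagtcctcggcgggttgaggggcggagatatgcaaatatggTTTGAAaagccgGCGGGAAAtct
*E2f7*: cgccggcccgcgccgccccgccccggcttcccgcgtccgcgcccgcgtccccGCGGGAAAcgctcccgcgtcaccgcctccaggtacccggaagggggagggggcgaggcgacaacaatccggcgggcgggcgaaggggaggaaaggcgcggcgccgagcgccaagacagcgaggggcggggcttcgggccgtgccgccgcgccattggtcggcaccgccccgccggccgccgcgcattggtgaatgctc
*E2f8*: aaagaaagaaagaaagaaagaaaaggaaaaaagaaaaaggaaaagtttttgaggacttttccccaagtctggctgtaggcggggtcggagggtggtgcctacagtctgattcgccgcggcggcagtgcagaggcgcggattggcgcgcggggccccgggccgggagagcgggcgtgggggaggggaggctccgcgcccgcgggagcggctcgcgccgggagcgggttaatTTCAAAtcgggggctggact
*Tfdp1*: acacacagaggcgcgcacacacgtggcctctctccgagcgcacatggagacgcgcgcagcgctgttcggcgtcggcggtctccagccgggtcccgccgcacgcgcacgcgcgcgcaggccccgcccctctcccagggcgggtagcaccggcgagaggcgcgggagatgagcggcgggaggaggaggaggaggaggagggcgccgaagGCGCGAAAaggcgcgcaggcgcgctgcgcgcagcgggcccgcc
Positions are counted from the start that each window was built on, which need not be the outer end of the gene. For *E2f8* the stretch shown lies inside the RefSeq gene span. So do the window of *E2f1* (chr2:154569377-154569676, gene chr2:154559400-154569892) and both windows of *Tfdp2*. The bases before the outer end of these genes were not searched, so a missing match says nothing about them. In *E2f3* both kinds of match lie close together, 23 and 11 bases before that start. The E2F match of *Tfdp1* begins 43 bases before the start of the window shown and 96 before that of a second window, and that of *E2f7* begins 198 bases before its start. *E2f8* holds the TTTGAA letters 20 bases before the start of its window and no E2F match. The genes span chr13:29906575-29986064 (*E2f3*), chr10:110745439-110787384 (*E2f7*), chr7:48866429-48882073 (*E2f8*) and chr8:13338725-13378448 (*Tfdp1*) in RefSeq.

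Before any IL-2 was given, KI cells were compared with WT within each line. In the *Stat5a* line 0 of the 10 members passed the test at 0 hr by edgeR, where 2.56% of all genes were higher and 0.88% lower in KI cells. At an unadjusted p under 0.05 the count was 1, and by DESeq2, limma voom and limma on log2 RPKM it was 0. That member was *E2f2*, at 0.41 ± 0.17 on the log2 scale (adjusted p = 0.209).

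In the *Stat5b* line 6 members were higher in KI cells at 0 hr, against 13.6% of all genes: the 3 activators, both atypical members and *Tfdp1*. *E2f8* was at 0.744, 0.979 and 0.958 RPKM in WT and at 2.10, 2.76 and 2.11 RPKM in KI libraries, a log2 difference of 1.32 ± 0.22 (adjusted p = 4.87e-05). *E2f2* was at 2.48, 3.03 and 3.32 RPKM in WT and at 6.56, 6.78 and 6.70 RPKM in KI libraries, a difference of 1.12 ± 0.17 (adjusted p = 1.21e-05). For both genes every KI library lay above the highest WT library. *E2f7* differed by 0.98 ± 0.23 and *E2f1* by 0.85 ± 0.17 (adjusted p = 0.00186 and 0.000268). *Tfdp1* (0.35 ± 0.11, adjusted p = 0.024) and *E2f3* (0.33 ± 0.11, adjusted p = 0.0333) passed by less. *Tfdp1* lost its call without replicate 1 (adjusted p = 0.0957) or replicate 2 (adjusted p = 0.0875) of WT or replicate 2 of KI (adjusted p = 0.216), and *E2f3* without the same libraries (adjusted p = 0.0781, 0.131 and 0.0935) or replicate 3 of KI (adjusted p = 0.1). The activators made up 20.9% ± 0.403 of the summed E2F RPKM in KI cells and 11.8% ± 1.29 in WT, and the atypical members 4.68% ± 0.305 and 2.08% ± 0.191.

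The same *Stat5b* KI libraries differed from WT in markers of other cells. All 6 erythroid markers were higher, summing to 478 ± 218 RPKM in KI and 51.4 ± 30.3 RPKM in WT, with *Hbb-bs* the most abundant. All 7 B cell markers were higher (226 ± 3.69 against 58.4 ± 4.401 RPKM, most of all *Cd79a*). All 9 macrophage and monocyte markers tested were higher (263 ± 60.3 against 93.6 ± 10.995 RPKM, with *Mpeg1* the most abundant; *Adgre1* was not used here). So were 3 of 5 neutrophil markers (51.1 ± 8.97 against 16.3 ± 9.44 RPKM, led by *S100a9*), 4 of 5 dendritic cell markers (78.1 ± 15.8 against 41.4 ± 4.42 RPKM, led by *Siglech*) and 3 of 4 CD4 T cell markers (26.7 ± 4.34 against 11.98 ± 1.48 RPKM, led by *Cd4*). Lower in these KI cells were 6 of 6 CD8 T cell markers, 3 of 5 NK cell markers (4.48 ± 0.747 against 13.1 ± 2.78 RPKM, led by *Klre1*), 6 of 7 naive T cell markers (1368 ± 93.1 against 1668 ± 136.1 RPKM) and 3 of 6 memory-phenotype CD8 T cell markers (683 ± 63.3 against 1060.4 ± 209 RPKM, led by *Ccl5*). None of these markers was at 0 reads in all libraries of a group at 0 hr. Their part in the higher E2F levels of resting *Stat5b* KI cells was not tested, and in bulk samples fewer cells of a type and less RNA per cell cannot be told apart. Of the *Stat5a* line markers at 0 hr, 2 of 7 B cell markers (272 ± 28.7 against 121.001 ± 56.7 RPKM), 1 of 9 macrophage and monocyte markers (204 ± 48.3 against 110.2 ± 24.7 RPKM) and 0 of 6 erythroid markers (179 ± 94.98 against 143.4 ± 106.4 RPKM) were higher in KI cells. So were 2 of 4 CD4 T cell and 2 of 5 dendritic cell markers, while 2 of 6 CD8 T cell, 2 of 7 naive T cell and 1 of 5 NK cell markers were lower, and 0 of the neutrophil and memory-phenotype markers passed.

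**Figure D2:**
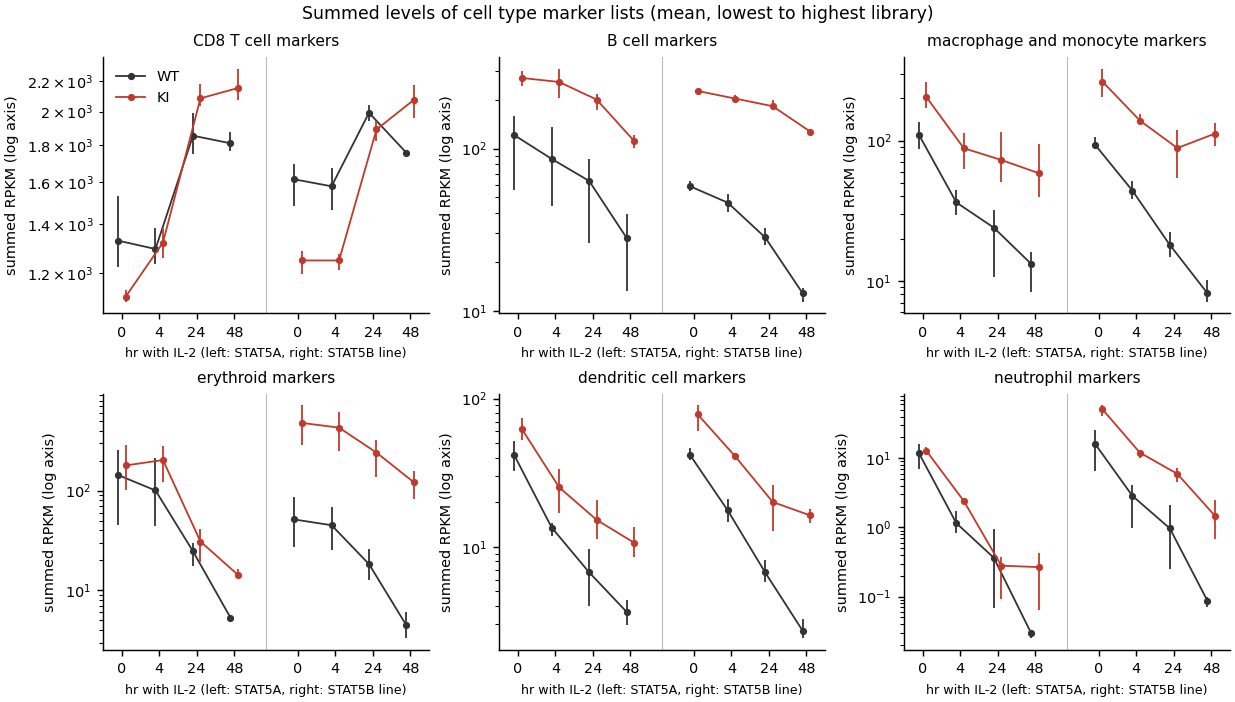
Summed RPKM of 6 marker lists (log axis) against hours with IL-2 in WT (black) and KI (red) cells of the *Stat5a* line (left of each panel) and the *Stat5b* line (right); points are group means and bars run from the lowest to the highest library. B cell markers in the *Stat5b* line go from 58.4 to 12.8 RPKM in WT and from 226 to 127.3 RPKM in KI cells between 0 and 48 hr.

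At 4 hr, 4 members were higher and *E2f4* was lower in *Stat5b* KI cells, against 14.5% and 12.8% of all genes. *E2f2* was at 1.75, 1.71 and 2.05 RPKM in WT and at 5.48, 6.45 and 5.94 RPKM in KI libraries, a difference of 1.59 ± 0.18 (adjusted p = 1.44e-08). *E2f8* (1.41 ± 0.23, adjusted p = 1.1e-05), *E2f7* (1.02 ± 0.23, adjusted p = 0.000926) and *E2f1* (0.45 ± 0.17, adjusted p = 0.0452) were the others that were higher. *E2f4* differed by -0.24 ± 0.07 (adjusted p = 0.00853). The calls of *E2f1* and *E2f4* were lost without replicate 3 of the KI group (adjusted p = 0.051 and 0.0951), and that of *E2f1* in 5 of the 47 fits that left out 1 library. In the same comparison all 7 B cell, all 9 macrophage and monocyte, all 6 erythroid and all 5 dendritic cell markers were higher in KI cells, with 4 of 5 neutrophil and 3 of 4 CD4 T cell markers. Lower were 3 of 6 CD8 T cell, 3 of 5 NK cell and 3 of 7 naive T cell markers, and of 6 memory-phenotype markers 2 were higher and 3 lower. Their part was not tested.

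Among *Stat5a* line cells at 4 hr 3 members were higher in KI cells, against 11.9% of all genes. They were *E2f2* (1.21 ± 0.19, adjusted p = 8.81e-05), *E2f7* (0.78 ± 0.27, adjusted p = 0.0349) and *E2f3* (0.34 ± 0.12, adjusted p = 0.0437). This comparison rests on 2 KI libraries, in which *E2f2* was at 5.13 and 2.87 RPKM. Without replicate 1 of the KI group none of the 3 calls held (adjusted p = 0.0745, 0.329 and 0.278), and that of *E2f3* was lost without replicate 2 of WT (adjusted p = 0.267). The count was 1 without replicate 3 of WT, 1 with voom and 0 with only the compared groups in the fit. Beside them 4 of 7 B cell, 6 of 9 macrophage and monocyte and 1 of 5 dendritic cell markers were higher, 3 of 5 NK cell and 2 of 7 naive T cell markers were lower, 1 CD8 T cell marker was higher and 2 were lower of 6, and 1 CD4 T cell marker was higher and 1 lower of 4. None of the erythroid, neutrophil or memory-phenotype markers passed, and the part of the others was not tested.

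KI cells at 4 hr were also compared with their own resting level. In *Stat5a* KI cells *E2f3* (0.78 ± 0.13) and *Tfdp2* (0.34 ± 0.11) rose and *E2f1* (-0.68 ± 0.19) fell, with 25.2% of all genes rising and 25.2% falling, and without replicate 2 of the KI group at 4 hr the calls of *E2f1* and *Tfdp2* were lost (adjusted p = 0.114 and 0.214). In *Stat5b* KI cells *Tfdp2* (0.38 ± 0.10) rose and *E2f1* (-1.01 ± 0.17) and *Tfdp1* (-0.27 ± 0.11, adjusted p = 0.0428) fell, with 22.8% of all genes rising and 25.7% falling. The call of *Tfdp1* was lost in 29 of the 47 fits that left out 1 library.

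At 24 hr KI cells of the *Stat5b* line had lower levels of 8 members than WT, against 26.3% of all genes lower. Of these, *E2f1*, *E2f2*, *E2f7* and *E2f8* had been higher in KI cells at 4 hr and *E2f4* had been lower. *E2f1* was at 17.4, 19.9 and 19.6 RPKM in WT and at 3.74, 5.84 and 4.37 RPKM in KI libraries, a difference of -2.05 ± 0.16 (adjusted p = 7.85e-13). *Tfdp1* was at 68.7, 80.1 and 75.3 RPKM in WT and at 21.9, 28.0 and 22.9 RPKM in KI libraries (-1.65 ± 0.11, adjusted p = 2.95e-14). For both genes the highest KI library lay below the lowest WT library. *E2f7* (-1.81 ± 0.21), *E2f8* (-1.73 ± 0.21), *E2f3* (-1.31 ± 0.11), *E2f6* (-0.85 ± 0.10) and *E2f4* (-0.52 ± 0.07) were lower too. *E2f2* differed by -0.50 ± 0.17 (adjusted p = 0.0122), its libraries overlapped (5.12 to 6.48 RPKM in KI and 6.41 to 9.71 RPKM in WT), and its call was lost without replicate 3 of WT (adjusted p = 0.097) or replicate 1 of KI (adjusted p = 0.0687). Among the markers in *Stat5b* KI cells 7 of 7 B cell, 9 of 9 macrophage and monocyte and 6 of 6 erythroid markers were higher, with sums of 182 ± 14.9, 88.4 ± 32.2 and 241 ± 95.2 RPKM against 28.3 ± 3.55, 18.03 ± 3.82 and 18.3 ± 6.84 RPKM in WT. So were 5 of 5 neutrophil, 4 of 5 dendritic cell, 4 of 4 CD4 T cell and 5 of 7 naive T cell markers, 3 of 6 memory-phenotype markers were lower, and 1 CD8 T cell and 1 NK cell marker were higher with 1 and 2 lower. Their part in the lower levels was not tested.

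From 0 to 24 hr 4 members passed in *Stat5b* KI cells, a share near that of all genes. *E2f6* (0.63 ± 0.10) and *E2f3* (0.47 ± 0.11) rose, *E2f8* (-0.53 ± 0.21, adjusted p = 0.0377) and *E2f5* (-0.36 ± 0.11, adjusted p = 0.00671) fell, and 21.1% of all genes rose and 26.7% fell. *E2f1* changed by -0.11 ± 0.16 and *Tfdp1* by 0.04 ± 0.11, with 95% intervals of -0.43 to 0.21 and -0.18 to 0.26. In *Stat5a* KI cells the same changes were 1.26 ± 0.16 and 1.11 ± 0.11. The fall of *E2f8* was lost in 30 of the 47 fits that left out 1 library. That of *E2f5* was lost without replicate 3 at 0 hr (adjusted p = 0.0786), replicate 2 at 24 hr (adjusted p = 0.177) or replicate 3 at 24 hr (adjusted p = 0.067).

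The *Stat5a* line at 24 hr had 6 members that were lower in KI cells, where 9.01% of all genes were. *E2f1* was at 12.8, 15.3 and 13.8 RPKM in WT and at 9.28, 8.86 and 7.81 RPKM in KI libraries, a difference of -0.76 ± 0.16 (adjusted p = 0.000741). The others were *E2f7* (-0.92 ± 0.21), *E2f8* (-0.85 ± 0.21), *E2f3* (-0.72 ± 0.11), *Tfdp1* (-0.71 ± 0.11) and *E2f6* (-0.31 ± 0.09). *E2f8* and *E2f6* lost their calls without replicate 2 of WT at 24 hr (adjusted p = 0.0523 and 0.088), and *E2f6* also without replicate 1 (adjusted p = 0.0585) or replicate 3 (adjusted p = 0.0548) of KI. All 7 B cell and all 9 macrophage and monocyte markers were higher in these KI cells, with 4 of 5 dendritic cell, 3 of 4 CD4 T cell, 2 of 7 naive T cell and 1 of 6 CD8 T cell markers. Lower were 2 of 5 NK cell and 3 of 6 memory-phenotype markers, and 0 of the erythroid and neutrophil markers passed. The B cell markers summed to 200.4 ± 23.6 RPKM in KI and 63.1 ± 32.5 RPKM in WT and the macrophage and monocyte markers to 72.7 ± 37.3 and 23.95 ± 11.6 RPKM, and their part was not tested.

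At 48 hr 8 members were lower and *Tfdp2* was higher in *Stat5b* KI cells, against 30.5% and 33.1% of all genes. Lower by at least 2-fold were 5 members, *E2f8*, *Tfdp1*, *E2f1*, *E2f3* and *E2f7*, against 9.81% of all genes. *E2f8* was at 19.8, 19.5 and 21.2 RPKM in WT and at 6.28, 7.42 and 5.34 RPKM in KI libraries (-1.75 ± 0.21, adjusted p = 2.85e-09). *Tfdp1* was at 135.2, 126.8 and 131.4 RPKM in WT and at 42.3, 49.6 and 36.6 RPKM in KI libraries (-1.69 ± 0.11, adjusted p = 2.65e-15). *E2f1* was at 21.2, 19.1 and 21.7 RPKM in WT and at 7.06, 9.47 and 5.98 RPKM in KI libraries (-1.54 ± 0.16, adjusted p = 1.57e-10). In each of these genes replicate 2 was the highest KI library, and it lay below the lowest WT library. *E2f3* (-1.49 ± 0.11), *E2f7* (-1.41 ± 0.20), *E2f2* (-0.86 ± 0.17), *E2f4* (-0.83 ± 0.07) and *E2f6* (-0.77 ± 0.10) were lower as well. *Tfdp2* was at 2.35, 2.43 and 2.25 RPKM in WT and at 3.25, 3.40 and 2.9996 RPKM in KI libraries (0.38 ± 0.10, adjusted p = 0.00166). *E2f5* differed by 0.12 ± 0.11, with a 95% interval of -0.10 to 0.33.

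*Stat5a* KI cells at 48 hr also had 8 members lower and *Tfdp2* higher than WT. The background was 22.8% of all genes lower and 21.5% higher, and 2.43% were lower by at least 2-fold, which 0 of the 10 members were. *Tfdp1* was at 113.4, 127.05 and 116.02 RPKM in WT and at 73.0, 67.0 and 66.7 RPKM in KI libraries (-0.84 ± 0.11, adjusted p = 1.29e-07). *E2f3* (-0.78 ± 0.11), *E2f8* (-0.74 ± 0.20), *E2f1* (-0.59 ± 0.16), *E2f6* (-0.44 ± 0.09) and *E2f4* (-0.42 ± 0.07) were lower too, and *Tfdp2* was higher by 0.40 ± 0.10 (adjusted p = 0.00136). *E2f7* (-0.49 ± 0.20, adjusted p = 0.0425) and *E2f5* (-0.32 ± 0.11, adjusted p = 0.0154) passed by less. *E2f7* lost its call without replicate 1 (adjusted p = 0.0994) or replicate 2 (adjusted p = 0.082) of WT or replicate 3 of KI (adjusted p = 0.0827), and *E2f5* without replicate 3 of WT (adjusted p = 0.0995). *E2f2* was the member that did not pass. It was at 20.6, 20.6 and 16.1 RPKM in WT and at 18.1, 18.1 and 16.4 RPKM in KI libraries, which overlapped, a difference of -0.18 ± 0.16 with a 95% interval of -0.50 to 0.14. With the left-out library included, 5 members passed in this comparison in place of 9.

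**Figure D3:**
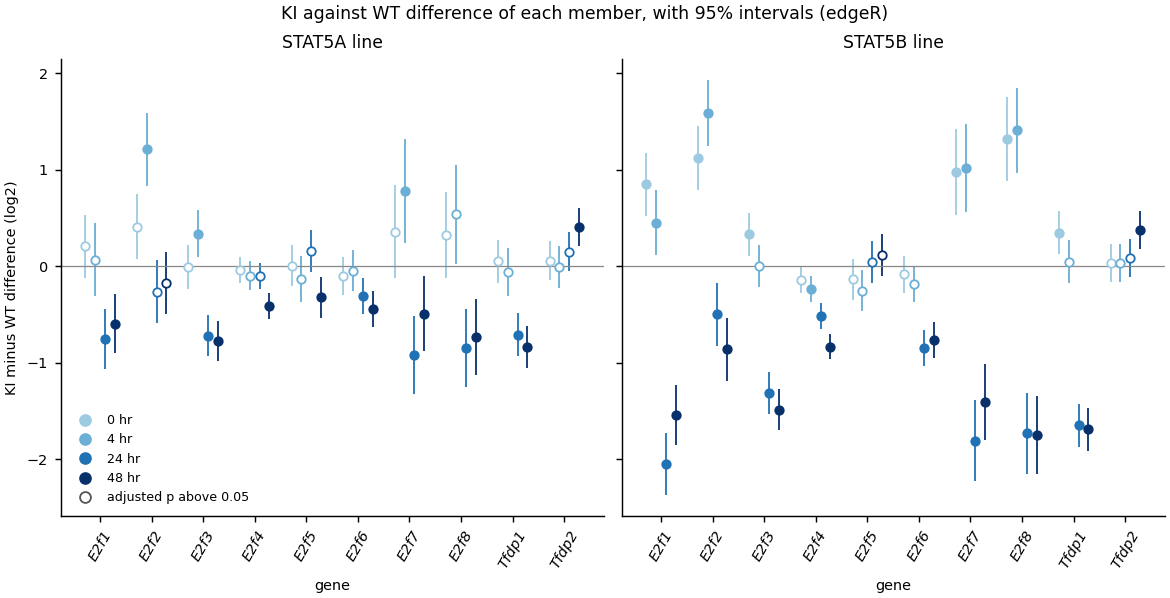
Log2 difference between KI and WT cells for each member at 0, 4, 24 and 48 hr (light to dark) in the *Stat5a* line (left) and the *Stat5b* line (right); bars are 95% intervals and open circles have an adjusted p above 0.05. *E2f1*, *E2f2*, *E2f7* and *E2f8* of the *Stat5b* line lie above 0 at 0 hr and below 0 at 48 hr, with *E2f8* going from 1.32 to -1.75.

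Markers of other cell types differed between genotypes at 48 hr too. For the *Stat5b* line all 7 B cell markers (127.3 ± 3.20 RPKM in KI, 12.8 ± 1.25 RPKM in WT), all 9 macrophage and monocyte markers (111.98 ± 21.6 and 8.19 ± 1.68 RPKM), all 6 erythroid markers (120.9 ± 37.0 and 4.45 ± 1.41 RPKM) and all 5 dendritic cell markers (16.3 ± 1.85 and 2.71 ± 0.482 RPKM) were higher in KI cells. So were 3 of 5 neutrophil markers (1.48 ± 0.942 and 0.0877 ± 0.0145 RPKM) and all 4 CD4 T cell markers (17.4 ± 0.285 and 3.76 ± 0.319 RPKM). *Retnlg*, a neutrophil marker, was at 0 reads in all WT and KI libraries of that time. Of the 6 CD8 T cell markers 5 were higher and 1 was lower in KI cells. Naive T cell markers were higher (7 of 7; 1384 ± 77.1 and 621 ± 25.9 RPKM), and of 6 memory-phenotype markers 4 were lower and 1 higher (779.8 ± 102.2 and 1229 ± 6.21 RPKM). For the *Stat5a* line all 7 B cell markers (111.4 ± 9.71 and 28.1 ± 13.4 RPKM) and all 9 macrophage and monocyte markers (58.5 ± 31.7 and 13.2 ± 4.26 RPKM) were higher, and 0 of 6 erythroid markers were (14.3 ± 1.81 and 5.34 ± 0.380 RPKM). Of its other lists 3 of 4 CD4 T cell, 4 of 5 dendritic cell, 0 of 5 neutrophil, 5 of 6 CD8 T cell and 7 of 7 naive T cell markers were higher, and 3 of 6 memory-phenotype markers were lower. Of 5 NK cell markers at 48 hr 2 were higher and 2 lower in *Stat5b* KI cells, and 1 was higher and 2 lower in *Stat5a* KI cells. Their part in the lower E2F levels was not tested.

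KI cells at 48 hr with IL-2 were compared with their own level at 0 hr. In *Stat5a* KI cells 8 members rose and *E2f5* fell (background 31.8% and 30.6%), with *E2f7* at 3.38 ± 0.23 and *E2f8* at 3.10 ± 0.23 on the log2 scale. Of the members in *Stat5b* KI cells 7 rose and *E2f5* fell (background 24.7% and 26.9%), with *E2f7* at 1.57 ± 0.21, *E2f8* at 1.26 ± 0.21 and *E2f3* at 1.05 ± 0.11. *E2f4* did not pass there (0.12 ± 0.07, adjusted p = 0.154). Measured as RPKM gained from 0 to 48 hr, *Stat5b* KI cells gained 16.3% of the WT gain for *E2f1*, 18.7% for *Tfdp1*, 20.9% for *E2f8* and 45.2% for *E2f6*, with *E2f2*, *E2f3*, *E2f4* and *E2f7* in between. *Stat5a* KI cells gained 51.5% for *Tfdp1*, 58.8% for *E2f8*, 60.8% for *E2f1* and 85.3% for *E2f2*, with *E2f3*, *E2f4*, *E2f6* and *E2f7* in between.

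The difference between KI and WT in the change from 0 hr, called the response here, was tested as an interaction. From 0 to 48 hr in the *Stat5b* line 8 members responded less in KI cells (background 25.6%), and the signed change of *Tfdp2* was higher there (background 23.8%). *Tfdp2* fell in WT (-0.37 ± 0.10) and did not pass in KI cells (-0.03 ± 0.10, 95% interval -0.23 to 0.17). The differences on the log2 scale were -3.06 ± 0.30 for *E2f8*, -2.39 ± 0.23 for *E2f1*, -2.38 ± 0.31 for *E2f7*, -2.04 ± 0.16 for *Tfdp1*, -1.99 ± 0.24 for *E2f2* and -1.82 ± 0.16 for *E2f3* (adjusted p = 1.2e-10, 7e-11, 3.43e-08, 6.04e-13, 8.03e-09 and 6.8e-12). The higher KI level at 0 hr enters these values. The call of *Tfdp2* (0.34 ± 0.14, adjusted p = 0.0465) was lost in 33 of the 47 fits that left out 1 library, and with the replicate number as a block (adjusted p = 0.0545).

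In the *Stat5a* line 6 members responded less in KI cells from 0 to 48 hr (background 16.2%). They were *E2f8* (-1.06 ± 0.30), *Tfdp1* (-0.89 ± 0.16), *E2f7* (-0.85 ± 0.32, adjusted p = 0.042), *E2f1* (-0.80 ± 0.23), *E2f3* (-0.77 ± 0.16) and *E2f4* (-0.37 ± 0.10). Without replicate 1 of KI at 0 hr *E2f7* and *E2f8* lost their calls (adjusted p = 0.25 and 0.0634), and in all 6 of the 47 fits lost *E2f7*. From 0 to 24 hr 8 members responded less in the *Stat5b* line (background 19.6%), with *E2f8* at -3.05 ± 0.31 and *E2f1* at -2.90 ± 0.23, and 5 in the *Stat5a* line (background 3.3%), with *E2f7* at -1.28 ± 0.32 and *E2f1* at -0.96 ± 0.23. With the left-out library included, 0 members passed from 0 to 24 hr in the *Stat5a* line. *E2f7* and *E2f8* of the *Stat5a* line lost these calls without replicate 1 of KI at 0 hr (adjusted p = 0.111 and 0.126) or replicate 2 of WT at 24 hr (adjusted p = 0.057 and 0.0923).

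Whether the *Stat5b* and *Stat5a* mutations differ in size of effect was tested as the difference of their KI effects, each against its own WT littermates. At 48 hr 7 members were lowered by more in *Stat5b* than in *Stat5a* KI cells, against 7.83% of all genes. They were *E2f8* (-1.01 ± 0.28), *E2f1* (-0.95 ± 0.22), *E2f7* (-0.92 ± 0.28), *Tfdp1* (-0.86 ± 0.16), *E2f3* (-0.71 ± 0.15), *E2f2* (-0.69 ± 0.23) and *E2f4* (-0.42 ± 0.10). At 24 hr there were 7 as well, against 11.4% of all genes, with *E2f6* (-0.53 ± 0.13) in place of *E2f2* (-0.23 ± 0.24, adjusted p = 0.557) and *E2f1* the largest at -1.29 ± 0.22. With the left-out library included, 0 members passed by edgeR at either time. By limma on log2(RPKM + 0.1) 3 passed at 48 hr and 4 at 24 hr. Without replicate 3 of the *Stat5b* KI group at 48 hr the count at that time was 4. Of the 47 fits that left out 1 library, 19 lost *E2f2* and 7 lost *E2f7* at 48 hr, and 8 lost *E2f7* and 8 lost *E2f8* at 24 hr. At 0 hr 0 of the 10 members passed by edgeR, 4 had an unadjusted p under 0.05, and 0 passed by DESeq2, limma voom or limma on log2 RPKM. Each line carries 1 mutation, so line and mutation cannot be told apart. Marker differences varied by line too. At 48 hr 6 of 6 erythroid markers were higher in *Stat5b* KI and 0 of 6 in *Stat5a* KI cells. Macrophage and monocyte markers were higher in both, with median differences of 6.03 and 3.35. Their part was not tested.

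The make-up of the E2F pool follows from these levels. In the *Stat5b* line WT the share of *E2f4* and *E2f5* in the summed RPKM of the 8 E2F genes went from 77.4% ± 1.52 at 0 hr to 46.8% ± 0.540 at 48 hr. The activators went from 11.8% ± 1.29 to 29.5% ± 0.301 and the atypical members from 2.08% ± 0.191 to 14.7% ± 0.213. In *Stat5b* KI cells at 48 hr the shares of *E2f4* and *E2f5*, of the activators and of the atypical members were 55.0% ± 3.41, 25.1% ± 2.66 and 9.18% ± 0.838. The sum itself was 170.1 RPKM in WT and 89.5 RPKM in KI cells as group means. At 48 hr in the *Stat5a* line the activators held 30.0% ± 0.721 in KI and 29.7% ± 1.79 in WT cells, a difference within the SD of WT. The ratio of *Tfdp1* to *Tfdp2* at 48 hr was 13.3 ± 1.23 in *Stat5b* KI and 21.4 ± 2.73 in *Stat5a* KI cells.

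**Figure D4:**
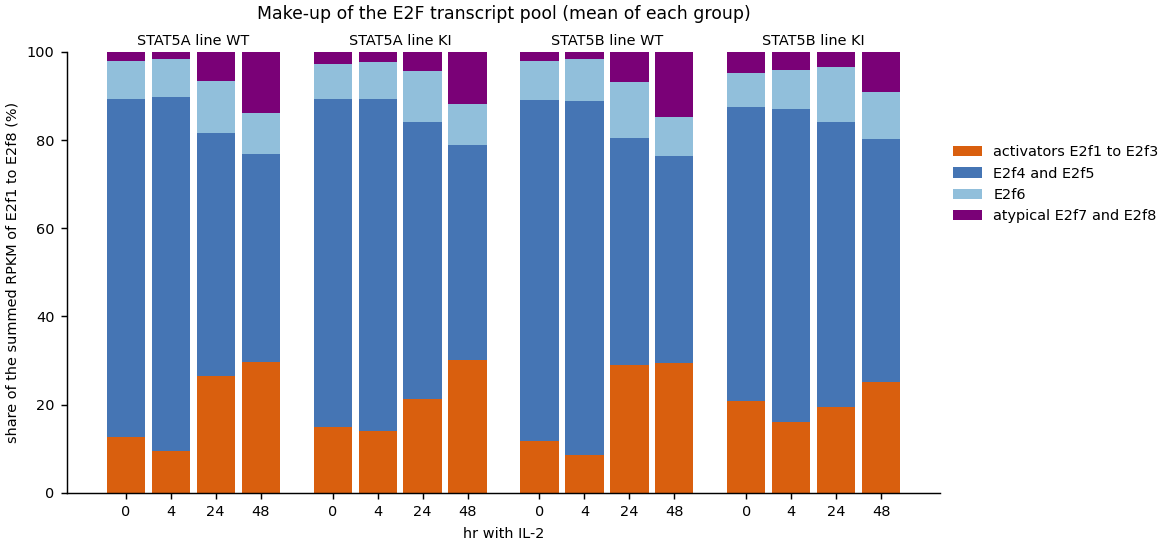
Share of the summed RPKM of *E2f1* to *E2f8* held by the activators, by *E2f4* and *E2f5*, by *E2f6* and by the atypical members, as stacked bars from 0 to 100% for the 16 groups (means over libraries). At 48 hr the atypical members hold 14.7% in the *Stat5b* line WT and 9.18% in *Stat5b* KI cells.

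Other genes of the pathway were taken from lists, whose counts at 48 hr stand against 22.8% of all genes lower and 21.5% higher in *Stat5a* KI cells, and 30.5% lower and 33.1% higher in *Stat5b* KI cells. Counts of genes that rose in WT cells by 48 hr stand against 34.1% of all genes in the *Stat5a* and 33.1% in the *Stat5b* line. A list of 30 classical E2F target genes included genes for replication and S phase proteins. All 30 rose in WT cells of each line by 48 hr. Their median log2 change was 2.77 in the *Stat5a* and 2.97 in the *Stat5b* line, where the median of all genes was -0.12 and -0.13. At 48 hr 29 of the 30 were lower in KI cells of either line, with a median of -0.77 in the *Stat5a* and -1.58 in the *Stat5b* line, where the median of all genes was 0.04 and 0.10. *Orc1*, of the origin recognition complex, differed by -2.41 ± 0.20 in the *Stat5b* and -1.18 ± 0.19 in the *Stat5a* line. *Hells*, a chromatin remodeller, differed by -1.90 and -1.17, *Cdc6*, which helps load the replicative helicase, by -1.89 and -0.90, and *Rrm2*, a ribonucleotide reductase subunit, by -1.87 and -0.95. *Tyms*, for thymidylate synthase, was the gene that did not pass, at -0.91 and -0.56. At 24 hr 29 were lower in *Stat5b* and 26 in *Stat5a* KI cells, against 26.3% and 9.01% of all genes. At 0 hr 20 of the 30 were higher in *Stat5b* KI cells (median 0.58), where 13.6% of all genes were, and 1, *Ezh2*, was in *Stat5a* KI cells (median 0.11), where 2.56% were.

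Cyclins and kinases that phosphorylate RB are the step above the family. Of 8 such genes 7 rose by 48 hr in WT cells of each line. In *Stat5b* KI cells at 48 hr 7 were lower than in WT, among them *Cdk6* (-2.53 ± 0.11), *Ccne2* (-1.91 ± 0.21) and *Ccne1* (-1.54 ± 0.14), and in *Stat5a* KI cells 6 were. *Ccnd1*, for cyclin D1, went the other way. It fell by 48 hr in WT cells (-4.50 in the *Stat5b* line). In KI cells it was higher, by 3.43 ± 0.34 in the *Stat5b* and 1.85 ± 0.32 in the *Stat5a* line. All 9 macrophage and monocyte markers moved in the same directions. Their median log2 change was -4.36 in *Stat5b* line WT, and their median differences in KI cells were 6.03 and 3.35. The part of other cell types in the *Ccnd1* levels was not tested.

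Inhibitors of these kinases and the pocket proteins were mixed. Of 7 CDK inhibitor genes, *Cdkn2a* (-1.94 ± 0.31), *Cdkn1a*, for p21 (-1.79 ± 0.22), and *Cdkn2c* (-0.70 ± 0.18) were lower in *Stat5b* KI cells at 48 hr and *Cdkn1b*, for p27 (1.34 ± 0.10), was higher. In *Stat5a* KI cells 3 were lower and *Cdkn1b* was higher by 0.59 ± 0.10. Of the 3 pocket proteins, *Rbl2*, for p130, was higher in KI cells by 0.82 ± 0.06 in the *Stat5b* and 0.49 ± 0.06 in the *Stat5a* line. *Rbl1*, for p107, was lower in the *Stat5b* line (-0.47 ± 0.11) and was at -0.12 in the *Stat5a* line (adjusted p = 0.386). *Rb1* did not pass in either line (-0.01 and -0.06).

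Partners in repressor and activator complexes moved as well. Of 7 genes of the MuvB core and its partners, which join p130 and E2F4 in resting cells and B-MYB later, 5 were lower in KI cells of each line at 48 hr, and 1 was higher in *Stat5a* KI cells. *Mybl2*, for B-MYB, differed by -1.87 ± 0.19 and *Foxm1*, a driver of mitotic genes, by -1.36 ± 0.15 in the *Stat5b* line, and *Lin54* and *Rbbp4* by -0.81 ± 0.09 and -0.67 ± 0.12. Of 11 genes of the E2F6 complex (PRC1.6) 7 were lower and 2 higher in *Stat5b* KI cells, with *Cbx3* at -0.75 ± 0.12, *Hdac2* at -0.70 ± 0.07, *Pcgf6* at -0.58 ± 0.10 and *L3mbtl2* at -0.52 ± 0.12. In *Stat5a* KI cells 5 were lower and 1 higher. The 4 ubiquitin ligase subunits *Cdc20*, *Ccnf*, *Skp2* and *Fzr1* were lower in KI cells of both lines, with differences of -1.87 ± 0.22, -1.45 ± 0.19, -1.24 ± 0.11 and -0.90 ± 0.15 in the *Stat5b* line.

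The MYC genes, which act upstream of several E2F genes, moved in opposite directions. *Myc* differed by -1.20 ± 0.18, *Mycn* by -5.18 ± 0.41 and *Mycl* by 3.54 ± 0.40 between *Stat5b* KI and WT cells at 48 hr. The same differences were -0.56, -1.78 and 2.25 in the *Stat5a* line. Markers of B cells, macrophages and monocytes, and dendritic cells were also higher in KI cells at 48 hr, and their part was not tested. Of 7 genes for STAT5 and its direct IL-2 responders 5 were lower in KI cells of each line at 48 hr. *Il2ra* and *Il2rb*, for chains of the IL-2 receptor, differed by -2.54 ± 0.37 and -1.56 ± 0.16 in the *Stat5b* line, and *Cish* and *Socs2*, for inhibitors of cytokine signalling, by -2.54 ± 0.22 and -1.84 ± 0.21. *Stat5b* was the gene of this list that was higher in KI cells at 48 hr, at 31.1 ± 2.34 and 21.3 ± 0.461 RPKM in KI and WT cells of the *Stat5b* line.

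**Figure D5:**
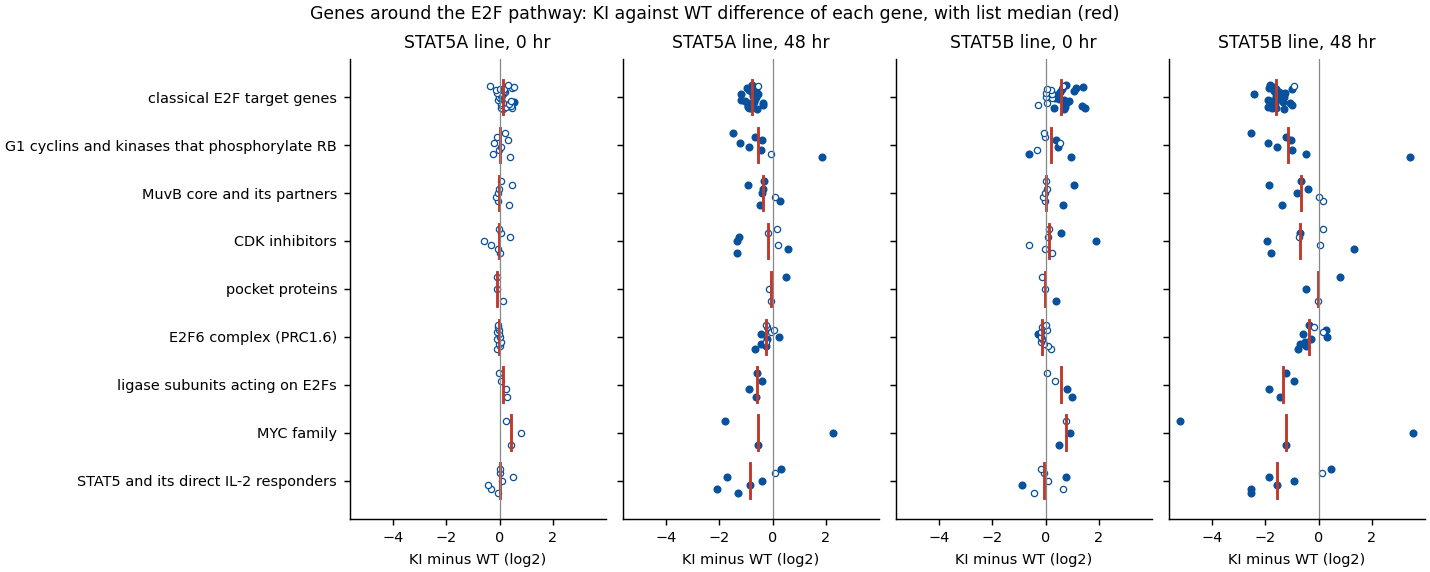
Log2 difference between KI and WT cells of the genes in 9 pathway lists at 0 and 48 hr in both lines; each point is a gene, filled where the adjusted p is at most 0.05, and red bars are list medians. The 30 E2F target genes have medians of 0.11 and -0.77 at 0 and 48 hr in the *Stat5a* line, and of 0.58 and -1.58 at these times in the other.

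The course of each member over the 16 groups was compared with that of all other genes tested by Pearson's r of the group means of log2 counts scaled by library size, as a description, since the groups share lines and times. The nearest genes to *E2f1* were *Chek1*, *Chaf1b* and *Cdc6* (r = 0.992, 0.992 and 0.988), and to *E2f2* they were *Tk1*, *Aurkb* and *Spag5* (0.972, 0.968 and 0.967). To *E2f3* the nearest were *Lig1*, *Pola2* and *Pop1* (0.992, 0.992 and 0.990). The atypical *E2f7* ran with *Pbk*, *BC030867* and *Ncapg2* (0.997, 0.996 and 0.996) and *E2f8* with *Espl1*, *Stil* and *Top2a* (0.997, 0.997 and 0.997). For *Tfdp1* they were *Wdhd1*, *Mcm5* and *Tubg1* (0.995, 0.995 and 0.994), and for *E2f6* *Xrcc6*, *Pfas* and *Gart* (0.991, 0.989 and 0.989). *E2f4* lay nearest to *Ino80e*, *Atpaf2* and *Dlat* (0.989, 0.986 and 0.984), *E2f5* to *Ptbp2*, *Thbs3* and *Arl8a* (0.934, 0.932 and 0.930) and *Tfdp2* to *Zfp523*, *Igf1r* and *Ccdc28a* (0.973, 0.963 and 0.960). These are the nearest genes over group means. Over the 47 single libraries the order was the same for *E2f1* and *E2f2* and differed for the other members. There the genes named for *Tfdp2* were at r = 0.869, 0.868 and 0.885 and ranked 45, 46 and 21, *Atpaf2* and *Dlat* ranked 34 and 20 for *E2f4*, and *Ptbp2* ranked 21 for *E2f5*, while the other genes named ranked 12 or nearer. Among the members, *E2f7* and *E2f8* were closest to each other (r = 0.990), and *E2f5* and *E2f2* were the most opposed (r = -0.902).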

How the data were processed

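Total RNA (100 ng per library) from CD8+ T cells isolated from spleen by negative selection was made into poly(A) libraries and sequenced as 50 bp single-end reads. The authors aligned reads to mm10 with TopHat2 and deposited, for each library, a table with the read count and the RPKM of every RefSeq transcript. The submitters' processing notes name TopHat2 2.0.11, Bowtie2 2.2.6, SAMtools 0.1.8, bedtools 2.25.0 and edgeR. The counting program and its strand setting are not given in the sources used here, so reads of overlapping genes on opposite strands cannot be told apart. An IgG control of the ChIP-seq experiment was not analysed here.

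For each symbol the longest transcript of 31682 was used. The members and gene lists were chosen with earlier results of these data known. The deposited counts of 47 libraries in 16 groups were fitted in edgeR 4.0.16 (R 4.3.3; quasi-likelihood test, group means, TMM, a minimum count of 10 in filterByExpr), and p-values were adjusted by Benjamini-Hochberg over the 15566 genes tested. SE values were derived from the fold change and its F statistic. The fit was tested on simulated data. Differences between lines and between responses were contrasts of the same fit. Levels are the deposited RPKM values, and shares and list sums were computed from them. The third replicate of *Stat5a* KI at 4 hr was left out for its depth. Every pair of libraries within a group differed by more than sampling noise.

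All members were named, and from each list up to 4 genes with the largest change among those passing in *Stat5b* KI against WT cells at 48 hr, or every gene of lists under 5. *Tyms*, *Ezh2*, *Stat5b*, the most abundant marker of a list and the marker at 0 reads were named after their values were seen. The alternatives were DESeq2 1.42.0, its size factors in edgeR, limma 3.58.1 on log2(RPKM + 1) and log2(RPKM + 0.1) with a filter of 1 RPKM in 3 libraries, voom with quality weights, no filter, the most abundant transcript, the compared groups alone, all 48 libraries, each library left out, and the replicate number as a block. Figures were drawn with matplotlib 3.10.9.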

Additional observations from a re-analysis of the deposited data

Results flagged for a closer look

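The KI effect in the *Stat5b* line differed from that in the *Stat5a* line, by a test of the difference itself, for 7 members at each of 24 and 48 hr. All were lowered by more in the *Stat5b* line, against 11.4% of all genes at 24 hr and 7.83% at 48 hr. Line and mutation cannot be told apart. On the log2 scale the difference (*Stat5b* minus *Stat5a*) at 24 hr was -1.29 for *E2f1*, -0.94 for *Tfdp1*, -0.89 for *E2f7*, -0.88 for *E2f8*, -0.59 for *E2f3*, -0.53 for *E2f6* and -0.42 for *E2f4*. At 48 hr it was -1.01 for *E2f8*, -0.95 for *E2f1*, -0.92 for *E2f7*, -0.86 for *Tfdp1*, -0.71 for *E2f3*, -0.69 for *E2f2* and -0.42 for *E2f4*. With the left-out library included, 0 members passed at either time. By limma on log2(RPKM + 0.1) 4 passed at 24 hr and 3 at 48 hr. Without replicate 3 of the *Stat5b* KI group at 48 hr the count at that time was 4.

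The change from 0 to 48 hr with IL-2 differed between KI and WT cells, by the interaction test, for 6 members in the *Stat5a* line. All of them had a lower change in KI cells, where 16.2% of all genes had one. The differences were -1.06 for *E2f8*, -0.89 for *Tfdp1*, -0.85 for *E2f7*, -0.80 for *E2f1*, -0.77 for *E2f3* and -0.37 for *E2f4*. In the *Stat5b* line the change differed for 9 members, lower for 8 and higher for 1 in KI cells, against 25.6% and 23.8% of all genes. The differences were -3.06 for *E2f8*, -2.39 for *E2f1*, -2.38 for *E2f7*, -2.04 for *Tfdp1*, -1.99 for *E2f2*, -1.82 for *E2f3*, -0.69 for *E2f4*, -0.68 for *E2f6* and 0.34 for *Tfdp2*. *Tfdp2* fell in WT cells (-0.37) and did not pass in KI cells (-0.03). The call of *Tfdp2* (adjusted p = 0.0465) was lost in 33 of the 47 fits that left out 1 library and with the replicate number as a block (adjusted p = 0.0545).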

How the results depend on the processing

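Over 330 values (10 members in 33 comparisons) no alternative reversed a direction that had been called. The side of the threshold stayed for 320 with DESeq2, 319 with its size factors in edgeR, 311 with voom, 320 with the most abundant transcript, 317 without a filter, 309 with the compared groups alone, 299 and 293 with limma on log2(RPKM + 1) and log2(RPKM + 0.1), and 269 with all 48 libraries. With DESeq2 size factors the median of all genes moved by at most 0.068 on the log2 scale, and with limma on log2(RPKM + 1) by up to 0.36, in the *Stat5a* line WT from 0 to 48 hr.

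With the shallow library included the number of members passing fell from 5 to 3 and from 4 to 2 in WT at 4 hr against 0 hr (*Stat5a* and *Stat5b* line), from 4 to 2 in *Stat5b* KI at 24 hr against 0 hr, from 9 to 5 for *Stat5a* KI against WT at 48 hr, from 6 to 3 and from 5 to 3 for *Stat5b* KI against WT at 0 and 4 hr, from 5 to 0 and from 6 to 3 for the *Stat5a* line interaction at 24 and 48 hr, and from 7 to 0 for the difference between lines at 24 and at 48 hr. Limma on log2(RPKM + 1) and on log2(RPKM + 0.1) gave 2 in place of 5 in *Stat5a* line WT at 4 hr, 2 in place of 4 in *Stat5b* KI at 24 hr against 0 hr, and 3 in place of 5 for the *Stat5a* line interaction at 24 hr, and with the smaller pseudocount 4 and 3 in place of 7 for the difference between lines at 24 and 48 hr. Without the filter *Stat5b* KI at 24 hr against 0 hr gave 2 in place of 4. With the compared groups alone *Stat5a* line WT at 4 hr gave 1 in place of 5, *Stat5a* KI against WT at 4 hr gave 0 in place of 3, and the *Stat5b* line interaction at 4 hr 1 in place of 0. Voom gave 1 in place of 3 for *Stat5a* KI against WT at 4 hr, and DESeq2 gave 1 in place of 0 for the *Stat5a* line interaction at 4 hr. By the most abundant transcript the level of *E2f6* in *Stat5a* KI at 24 hr was 10.1 in place of 9.93 RPKM. The causes were not tested.

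Leaving out 1 library at a time, the counts ran from 3 to 7 in *Stat5a* line WT at 4 hr (3 without replicate 3 of that group), from 1 to 4 in *Stat5a* KI at 4 hr against 0 hr (1 without replicate 2 at 4 hr), from 2 to 4 in *Stat5b* KI at 24 hr against 0 hr (2 without replicate 3 at 0 hr, or replicate 2 or 3 at 24 hr), from 0 to 3 for *Stat5a* KI against WT at 4 hr (0 without replicate 1 of KI and 1 without replicate 3 of WT), from 3 to 6 for *Stat5b* KI against WT at 4 hr (3 without replicate 3 of KI), from 0 to 2 for the *Stat5a* line interaction at 4 hr (2 without replicate 1 of WT, 1 without replicate 3 of WT or replicate 2 of KI at 4 hr), from 3 to 6 for that at 24 hr (3 without replicate 1 of KI at 0 hr or replicate 2 of WT at 24 hr), from 0 to 1 for the difference between lines at 0 hr (1 without replicate 1 of *Stat5a* KI), and from 4 to 9 for it at 48 hr (4 without replicate 3 of *Stat5b* KI). The other counts stayed within 1.5 times.

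Replicate numbers are shared between groups, but the labels tie them to no common animal or batch. Same-numbered libraries correlated above 0.1 in all 3 pairs for *Stat5a* line WT at 24 hr (0.206, 0.273 and 0.419) and 48 hr (0.166, 0.117 and 0.192) against 0 hr and in no other comparison of the 20 checked. With the replicate number within line as a block, 323 of the 330 values kept their side, 2 lost it and 5 gained it, and *Tfdp2* of the *Stat5b* line interaction at 48 hr was lost (adjusted p = 0.0545).

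In bulk RNA the levels of low members such as *E2f7* rest on as few as 33 reads, and 3 libraries per group, or 2 for *Stat5a* KI at 4 hr, limit the precision of each mean.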
